A study of Mus musculus with 35 samples.

Results

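Neuronal immediate-early genes are genes switched on within minutes of synaptic activity, without new protein synthesis. The 10 examined here, Fos, Fosb, Junb, Egr1, Egr2, Egr4, Arc, Nr4a1, Npas4 and Ier2, were taken by gene symbol from a striatal count table. They were chosen with earlier results of these data known. All 10 were found among the 32863 genes kept of 39109 entries, and all 10 passed the filter on low counts in each comparison.

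The table holds RNA-seq counts from the striata of 35 mice, 1 library per mouse, aged 21.7 to 23 weeks. The groups cross a heterozygous knock-in of an expanded CAG repeat in the mouse huntingtin gene (HttQ111/+, constitutive repeat 110 to 140 in Hdac2 WT and 110 to 144 in Hdac2 KO mice) with loss of the histone deacetylase gene Hdac2: 8 libraries were Htt+/+ Hdac2 WT, 7 HttQ111/+ Hdac2 WT, 9 Htt+/+ Hdac2 KO and 11 HttQ111/+ Hdac2 KO. Hdac2 KO mice (Hdac2-/- in the labels) carry floxed Hdac2 alleles and D9-Cre, driven by Ppp1r1b regulatory elements in medium-spiny neurons (MSNs) of young adults, so other striatal cells keep Hdac2. All Hdac2 WT mice (Hdac2+/+) are labelled Cre-, so the presence of Cre and the deletion cannot be told apart, and RNA extraction was spread over 6 days, most of which held a single Hdac2 genotype.

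Immediate-early genes are held ready at their promoters by factors such as CREB and SRF, which kinases downstream of calcium entry and dopamine receptors phosphorylate. Their products are mostly transcription factors that start a second wave of genes, and Arc acts directly at synapses. In the striatum they are used as markers of recent activity of MSNs, and their transcripts decay quickly, so a tissue level depends on the time just before dissection. In whole striatum, fewer cells with a transcript and less transcript per cell cannot be told apart.

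RefSeq promoter windows (GRCm38.p6, 250 bases before to 50 after the annotated start) were found for 7 of the 10 members, and Egr1, Arc and Ier2 had none to use. They are shown because CREB sites are a feature that such promoters are known for. The members moved together between libraries, as described further on, and any link of that to these sites was not tested. Neither the CArG box bound by SRF (CC, 6 bases of A or T, GG) nor the full CREB site TGACGTCA occurred in the 7 windows, on either strand. These were present in 1.63% and 1.79% of all 32851 RefSeq windows of the same length. At such low shares, their absence from 7 windows does not set the members apart from other genes. Forms of the CArG box with a letter changed, sites outside the windows, and any in the members without a window, were not searched. The core of the CREB site, TGACG, was found in 6 of the 7 windows, and in 20.8% of all windows; the full site contains it. Nr4a1 held 4 core sites, Fos, Egr4 and Npas4 held 2 each, Fosb and Junb held 1 each, and Egr2 none. The 250 bases before the start of the 4 members with more than 1 core site follow, written 5′ to 3′ on the gene's strand with core sites in capitals (CGTCA is the same site on the other strand). Fos covers chr12:85473640-85473889 on the plus strand, Egr4 chr6:85513590-85513839 on the minus strand, Nr4a1 chr15:101266596-101266845 on the plus strand and Npas4 chr19:4989972-4990221 on the minus strand.
Fos: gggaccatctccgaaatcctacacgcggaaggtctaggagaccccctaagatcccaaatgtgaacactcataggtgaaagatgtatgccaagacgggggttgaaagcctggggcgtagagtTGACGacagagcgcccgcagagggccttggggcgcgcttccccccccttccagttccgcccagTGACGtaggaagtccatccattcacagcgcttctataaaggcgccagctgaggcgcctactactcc
Egr4: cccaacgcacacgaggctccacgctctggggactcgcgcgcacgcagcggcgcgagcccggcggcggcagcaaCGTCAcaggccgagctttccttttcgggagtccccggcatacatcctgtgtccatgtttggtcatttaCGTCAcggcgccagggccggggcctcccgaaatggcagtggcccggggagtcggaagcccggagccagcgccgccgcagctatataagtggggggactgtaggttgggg
Nr4a1: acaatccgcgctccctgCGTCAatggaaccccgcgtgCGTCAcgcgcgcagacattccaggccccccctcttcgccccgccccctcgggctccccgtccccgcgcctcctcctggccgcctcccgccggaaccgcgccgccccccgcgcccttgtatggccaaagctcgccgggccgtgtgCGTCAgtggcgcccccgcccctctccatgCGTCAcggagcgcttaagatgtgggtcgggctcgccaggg
Npas4: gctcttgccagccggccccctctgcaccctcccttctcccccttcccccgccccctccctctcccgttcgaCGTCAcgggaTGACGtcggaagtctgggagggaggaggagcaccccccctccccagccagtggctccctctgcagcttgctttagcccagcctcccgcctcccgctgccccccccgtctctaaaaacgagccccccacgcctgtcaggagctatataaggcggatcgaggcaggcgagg
The core site of Fos nearest to the start lay 66 to 62 bases before it and that of Nr4a1 40 to 36 bases before it. A match to these letters is a description of the window and does not show that a factor bound there.

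Total counts on genes were 50339179 to 76939791 per library (median 56630712), and levels are given as CPM (counts scaled to the library total) after TMM scaling. Per kilobase of exon, mean levels over the 35 libraries were 87.8 CPM per kb for Egr1, 49.6 for Arc, 36.4 for Nr4a1, 18.1 for Junb, 12.9 for Egr4, 6.06 for Egr2, 4.64 for Npas4, 3.21 for Fosb, 2.42 for Fos and 1.07 for Ier2. Egr1 thus had the highest level per length and Ier2 the lowest, although counting covered introns as well. Exon lengths came from another annotation than the counts. They exceed the counted gene span for Fos (2352 against 2174 nt) and Junb (2301 against 1840 nt), so the values per kb are approximate. None of the 10 overlaps another gene kept in the table. Hdac2 itself, counted over the whole gene, had 95.5 to 111 CPM in Hdac2 WT libraries and 89.4 to 101 CPM in Hdac2 KO libraries, so this measure does not separate single libraries.

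The AP-1 members encode subunits that pair to bind DNA. Fos, the best known activity marker, was at 4.38, 5.88 and 14.0 CPM (lowest, median and highest library) in Htt+/+ Hdac2 WT striata. In HttQ111/+ Hdac2 WT striata the same values were 0.834, 5.84 and 8.98 CPM. Htt+/+ Hdac2 KO striata had 1.97, 3.40 and 12.1 CPM, and HttQ111/+ Hdac2 KO striata 2.15, 4.17 and 15.7 CPM. The 4 groups overlapped, and the lowest Fos values were 3 HttQ111/+ Hdac2 WT libraries at 0.834, 0.977 and 1.41 CPM. Fosb, whose stable splice product accumulates in striatal neurons, had 15.9, 23.6 and 41.8 CPM in Htt+/+ Hdac2 WT and 11.6, 16.2 and 29.8 CPM in HttQ111/+ Hdac2 WT. In Hdac2 KO striata it had 9.62, 12.2 and 42.2 CPM without the Htt allele and 11.7, 16.3 and 36.9 CPM with it. The highest Fosb libraries of Htt+/+ Hdac2 WT and Htt+/+ Hdac2 KO were nearly level, whereas the medians differed. Junb, a partner of both Fos proteins, had 38.0, 51.4 and 84.2 CPM in Htt+/+ Hdac2 WT, 18.5, 31.4 and 59.2 CPM in HttQ111/+ Hdac2 WT, 21.1, 29.0 and 73.1 CPM in Htt+/+ Hdac2 KO, and 15.4, 35.4 and 67.0 CPM in HttQ111/+ Hdac2 KO. Its 8 control libraries included no value as low as the medians of the other 3 groups.

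The Egr genes encode zinc-finger transcription factors. Egr1, the most abundant member, lay between 420 and 647 CPM in all 8 Htt+/+ Hdac2 WT libraries, a 1.54-fold range around a median of 518 CPM. The range was 146 to 552 CPM (median 358) in HttQ111/+ Hdac2 WT, 189 to 608 CPM (median 292) in Htt+/+ Hdac2 KO and 156 to 598 CPM (median 356) in HttQ111/+ Hdac2 KO. Each of these 3 groups held libraries inside the control range and others well below it. Egr2 had 18.6, 24.9 and 49.4 CPM in Htt+/+ Hdac2 WT, and 1.74, 13.7 and 34.2 CPM in HttQ111/+ Hdac2 WT, a 19.7-fold range. In Htt+/+ Hdac2 KO it had 6.50, 9.76 and 54.6 CPM, and in HttQ111/+ Hdac2 KO 3.82, 18.4 and 49.7 CPM. The single highest Egr2 library was thus an Htt+/+ Hdac2 KO library, in the group with the lowest median. Egr4, of the same family, had 22.2, 33.6 and 60.9 CPM in Htt+/+ Hdac2 WT, 10.3, 20.4 and 44.5 CPM in HttQ111/+ Hdac2 WT, 12.6, 16.6 and 52.6 CPM in Htt+/+ Hdac2 KO, and 10.5, 24.8 and 53.1 CPM in HttQ111/+ Hdac2 KO. It followed Egr1 in the order of the group medians at the top and the bottom.

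Arc, whose protein takes part in removing AMPA receptors from synapses, had 137, 192 and 283 CPM in Htt+/+ Hdac2 WT and 44.1, 83.7 and 243 CPM in HttQ111/+ Hdac2 WT. It had 67.6, 102 and 267 CPM in Htt+/+ Hdac2 KO and 61.7, 125 and 268 CPM in HttQ111/+ Hdac2 KO. No control library fell under 137 CPM, whereas the other groups each had a median below that level. Nr4a1, an orphan nuclear receptor, had 104, 157 and 263 CPM in Htt+/+ Hdac2 WT and 23.8, 95.4 and 202 CPM in HttQ111/+ Hdac2 WT. In Htt+/+ Hdac2 KO it had 46.3, 60.2 and 312 CPM, and in HttQ111/+ Hdac2 KO 46.7, 108 and 292 CPM. Npas4, a factor induced in neurons by calcium entry, had another order of medians than Arc and Nr4a1. Its median was 23.8 CPM (10.9 to 30.4) in Htt+/+ Hdac2 WT and 22.7 CPM (7.44 to 31.0) in Htt+/+ Hdac2 KO, then 17.2 CPM (5.91 to 32.9) in HttQ111/+ Hdac2 KO and 10.8 CPM (4.20 to 22.7) in HttQ111/+ Hdac2 WT. Ier2, a small nuclear early response protein, had the lowest level, with medians of 1.36 to 1.62 CPM and single libraries from 0.894 to 3.41 CPM. Its groups hardly differed in median, and 1 library, HttQ111/+ Hdac2 WT replicate 7 at 3.41 CPM, stood apart.

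**Figure D1:**
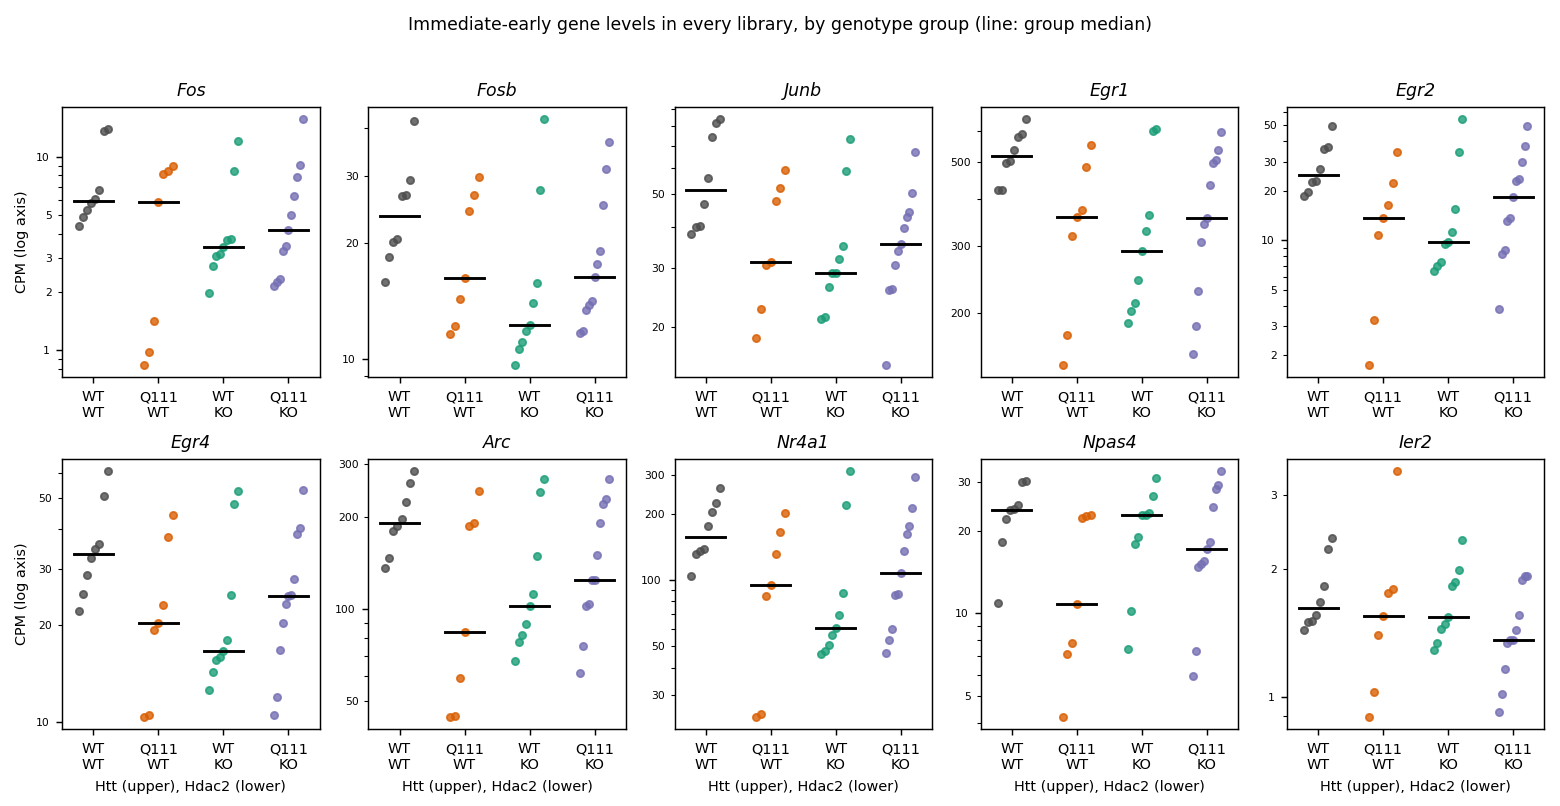
CPM of each member (log axis) in every library by genotype group, with 1 point per mouse and a line at the group median; the lower row of tick labels is Hdac2. The 8 Htt+/+ Hdac2 WT libraries of Egr1 sit between 420 and 647 CPM, and the other 3 groups reach down to 146, 189 and 156 CPM.

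Mean levels were highest in Htt+/+ Hdac2 WT for all 10 members, for example 524 ± 80.3 CPM (SD, n = 8) for Egr1 against 344 ± 148 (n = 7) in HttQ111/+ Hdac2 WT, 338 ± 162 (n = 9) in Htt+/+ Hdac2 KO and 377 ± 149 (n = 11) in HttQ111/+ Hdac2 KO. For Nr4a1 the means were 172 ± 54.2, 104 ± 67.3, 106 ± 94.6 and 129 ± 76.3 CPM in the same order. These differences were tested in 2 fits. The first followed the study in adding 9 surrogate variables, estimated from all genes, to the 4 genotype groups. Its p values measure the spread left after these variables. The second fit left them out, so its p values measure the spread between mice. The surrogate variables held much of the members' spread, namely 95.1% of the variance within groups for Egr1, 92.5% for Egr4, 89.1% for Nr4a1, 87.2% for Egr2 and 58.0% to 78.2% for the other 6, with a median of 58.8% over all genes. Log2 fold changes are given with SE, and p values are those of edgeR's quasi-likelihood F test, with Benjamini-Hochberg adjustment across every gene that was tested. Because the members moved together between libraries (median r 0.79, described further on), counts of members with 1 sign are not counts of separate results.

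Loss of Hdac2 in Htt+/+ mice (9 KO against 8 WT libraries) called 1 of the 10 members at an adjusted p under 0.05, Egr1, while 17.8% of all genes tested were called. Egr1 was lower, with a log2 fold change of -0.29 (SE 0.091, adjusted p = 0.0226). Its control and KO ranges overlapped, since the top 2 KO libraries had 608 and 602 CPM. No other member passed, and their values ran from -0.28 (SE 0.26, adjusted p = 0.532) for Egr2 to 0.46 (SE 0.32, adjusted p = 0.384) for Fos and 0.54 (SE 0.33, adjusted p = 0.297) for Npas4. Without surrogate variables all 10 members had values below 0, with a median of -0.63, and the sign of 3 members turned, with Fos at -0.69 (SE 0.44), Npas4 at -0.19 (SE 0.31) and Ier2 at -0.07. The largest shifts relative to their error in that fit were those of Junb (-0.68, SE 0.26, adjusted p = 0.0547) and Egr1 (-0.64, SE 0.26, adjusted p = 0.0733), and none passed with all 35 libraries. With 1 library left out at a time, Junb was called in 8 of the 35 fits without surrogate variables (lowest adjusted p = 0.0106), Egr1 in 2, and Egr2, Fosb and Nr4a1 in 1 each. All 5 were called without Htt+/+ Hdac2 KO replicate 1, Junb and Egr1 also without replicate 8 of that group, and Junb also without HttQ111/+ Hdac2 WT replicate 5, Htt+/+ Hdac2 WT replicates 1, 2 or 8, or HttQ111/+ Hdac2 KO replicates 1 or 8. The shares of all genes called in these fits are not given here. With all 35 libraries and no surrogate variables, 2 of the 10 were lower at an unadjusted p under 0.05, as were 17.7% of all genes. An exact two-sided permutation test of log2 CPM over the 24310 arrangements of the 17 libraries gave p = 0.0086 for Egr1, p = 0.0195 for Junb, p = 0.0215 for Egr2 and for Arc, p = 0.0226 for Nr4a1 and p = 0.603 for Ier2. These p values are unadjusted. The test was run on the members only, so it has no share over all genes beside it. In the reported fit, 1 of the 10 and 29.0% of all genes had an unadjusted p under 0.05. Permuted within ID series, the number of members under 0.05 went from 8 to 4, with Egr1 at p = 0.00794 and Junb at p = 0.0744. When the fit took only the libraries of the 2 groups, with surrogate variables of their own, 6 of the 10 were called, all lower (Junb at -0.68, Egr1 at -0.75, Arc at -0.73, Egr4 at -0.71, and Egr2 and Nr4a1 further from 0), and 15.2% of all genes were called lower.

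The Egr1 call changed in fits with 1 library left out and with the test. DESeq2 gave an adjusted p of 0.0578, and a fit on males only gave -0.17 (adjusted p = 0.301). With 1 library left out at a time it was kept in 21 of 35 fits, with log2 fold changes of -0.46 to -0.15 and adjusted p values of 0.000209 to 0.307. It was lost without HttQ111/+ Hdac2 WT replicates 3 or 6, Htt+/+ Hdac2 WT replicates 1, 2, 6, 7, 8 or 9, HttQ111/+ Hdac2 KO replicates 5, 7, 10 or 11, or Htt+/+ Hdac2 KO replicates 7 or 9. These fits kept genes that passed the filter in any of the 4 groups and estimated the surrogate variables anew. More than the library left out therefore changed. Within the V series of mouse IDs (3 KO and 5 WT libraries) all 10 members were lower in the KO libraries (median log2 difference -1.17), and in the Z series 9 of 10 were (5 and 1 libraries, median -0.64). In the A series, with 1 KO and 2 WT libraries, all 10 were higher (median 0.70).

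In HttQ111/+ mice, Hdac2 KO against Hdac2 WT called 0 of the 10 members and 16.5% of all genes. At an unadjusted p under 0.05 were 1 member, Fos, and 28.1% of all genes. Fos had a value of 0.62 (SE 0.29, adjusted p = 0.156), Npas4 0.54 (SE 0.30, adjusted p = 0.252) and Arc 0.45 (SE 0.22, adjusted p = 0.18). Egr1 was at -0.10 (SE 0.082, unadjusted p = 0.227), and DESeq2 with the same terms also called 0. With HttQ111/+ Hdac2 WT replicate 5 left out, Egr1 alone was called (adjusted p = 0.011), and no member was with any other library left out. Without surrogate variables 7 of the 10 values were above 0, with a median of 0.17, and 0 were lower at an unadjusted p under 0.05, against 14.3% of all genes. The smallest exact permutation p over the members was 0.218. The values without covariates had opposite signs in the sexes, as all 10 were lower in KO males (8 and 4 libraries, median -0.38) and 9 of 10 higher in KO females (3 and 3, median 1.42). All 5 KO libraries of the V series of mouse IDs were males, so these values do not separate sex from series. The HttQ111/+ Hdac2 WT females were replicates 2, 5 and 7, with mean deviations from the group mean of -1.04, -1.27 and 0.95 log2 units. A fit on males only, with surrogate variables, had 8 of the 10 above 0, with a median of 0.15. By ID series and without covariates, 9 of 10 were higher in A (3 and 2 libraries), 5 of 10 in V (5 and 3) and 2 of 10 in Z (3 and 2). Over both Htt genotypes, the average Hdac2 KO effect called 25.0% of all genes and, of the members, Egr1, at -0.19 (SE 0.068, adjusted p = 0.0348), which was kept in 16 of the 35 fits with 1 library left out. Those in which it was lost left out HttQ111/+ Hdac2 WT replicates 3, 6 or 7, Htt+/+ Hdac2 WT replicates 1, 2, 6, 7, 8 or 9, HttQ111/+ Hdac2 KO replicates 2, 5, 7, 8, 10 or 11, or Htt+/+ Hdac2 KO replicates 1, 6, 7 or 9. Fos (0.55, SE 0.24, adjusted p = 0.101) and Npas4 (0.53, SE 0.25, adjusted p = 0.126) did not pass. Without surrogate variables Fos was at -0.25 (SE 0.31) and Npas4 at 0.13 (SE 0.22), and 9 of 10 members were below 0. With 1 library left out, Npas4 was called in 4 of the 35 fits (lowest adjusted p = 0.0278) and Fos in 1 (adjusted p = 0.0435). Both were called without HttQ111/+ Hdac2 KO replicate 8, and Npas4 also without replicate 7 of that group, HttQ111/+ Hdac2 WT replicate 3 or Htt+/+ Hdac2 WT replicate 8.

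The HttQ111 allele was compared with Htt+/+ in each Hdac2 background. In Hdac2 WT mice the fit called 0 of the 10 members and 0.403% of all genes, and DESeq2 also called 0 members. At an unadjusted p under 0.05 were 2 members, Egr1 and Egr2, and 10.9% of all genes. All 10 values were below 0, with a median of -0.26 against 0.00188 over all genes. Egr2 was at -0.54 (SE 0.25, adjusted p = 0.414), Arc at -0.47 (SE 0.24, adjusted p = 0.487) and Egr1 at -0.23 (SE 0.087, adjusted p = 0.302). All 10 stayed below 0 in each of the 11 alternatives of covariates, filter, scaling, test and sets of libraries, and the 9 other than Ier2 also with any 1 library left out, while Ier2 reached 0.093 without HttQ111/+ Hdac2 WT replicate 3. Without surrogate variables the median was -0.62, and 4 of the 10 (Junb, Egr1, Arc and Npas4) were lower at an unadjusted p under 0.05, as were 6.61% of all genes, and none passed adjustment (lowest adjusted p = 0.30). Over the 6435 arrangements of the 15 libraries, the exact two-sided permutation test gave an unadjusted p = 0.00699 for Egr1, p = 0.0118 for Egr2, p = 0.03 for Arc and p = 0.0311 for Npas4. Permuted within ID series, it gave p = 0.00298 for Egr1, p = 0.0119 for Egr2 and p = 0.0516 for Arc, and the number of members under 0.05 went from 6 to 4. The permutation was run on the members only, so no share over all genes stands beside these counts. All 10 members were lower within the A series (2 and 2 libraries) and the V series (3 and 5), and 8 of 10 within the Z series (2 and 1). The HttQ111/+ libraries of the V series had the longer CAG repeats. By sex, 10 of 10 members were lower in males and 9 of 10 in females. By extraction day, all 10 were lower on 24 May and on 27 May, and 6 of 10 on 25 May. The series, sexes and days are subsets of the same 15 libraries, and the alternatives mostly reuse them. With members that moved together, these counts do not add up as separate results.

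In Hdac2 KO mice, HttQ111/+ against Htt+/+ called 0 of the 10 members and 0.00584% of all genes. None reached an unadjusted p under 0.05, DESeq2 called 0 as well, and values lay between -0.23 (SE 0.24) for Npas4 and 0.07 (SE 0.16) for Nr4a1. For Egr1 the difference was -0.02 with an approximate 95% interval, taken from the SE alone, of -0.16 to 0.11. Without surrogate variables 8 of 10 were above 0 (median 0.16), and 0 were lower at an unadjusted p under 0.05, against 4.07% of all genes. The values without covariates had opposite signs in the sexes, as all 10 were lower in HttQ111/+ males (8 against 5, median -0.43) and 9 of 10 higher in HttQ111/+ females (3 against 4, median 1.20). None of these HttQ111/+ females was of the V series, so sex and ID series are not separated here either. The interaction, the HttQ111 difference in Hdac2 KO minus that in Hdac2 WT mice, called 0 of the 10 members and 0.00577% of all genes, with 0 members at an unadjusted p under 0.05 and DESeq2 at 0. It was above 0 for 9 of 10 members, with a median of 0.17, and was nearest to the threshold for Egr1 (0.21, SE 0.11, adjusted p = 0.881). Averaged over both backgrounds, the HttQ111 effect called 0 of the 10 and 1.27% of all genes, and DESeq2 called 0 members. At an unadjusted p under 0.05 were 1 member, Egr1, and 12.3% of all genes. All 10 values were below 0, from -0.26 (SE 0.16) for Egr2 to -0.10 (SE 0.12) for Fosb, and stayed below 0 under the 10 alternatives. Without Htt+/+ Hdac2 KO replicate 1, the sign turned for Fosb (0.0967), Nr4a1 (0.0801) and Fos (0.00152).

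HttQ111/+ Hdac2 KO against Htt+/+ Hdac2 WT, which shares its control libraries with 2 of the comparisons above, called 1 of the 10 members and 21.2% of all genes. That member was again Egr1, at -0.33 (SE 0.087, adjusted p = 0.00596). Egr4 was at -0.27 (SE 0.13, adjusted p = 0.138), Junb at -0.32 (SE 0.20, adjusted p = 0.286) and Fos at 0.30 (SE 0.30, adjusted p = 0.55). The Egr1 call was kept in 24 of the 35 fits with 1 library left out, with log2 fold changes of -0.41 to -0.17. It was lost without HttQ111/+ Hdac2 WT replicates 3 or 6, Htt+/+ Hdac2 WT replicates 8 or 9, HttQ111/+ Hdac2 KO replicates 5, 7, 10 or 11, or Htt+/+ Hdac2 KO replicates 1, 7 or 9. Without Htt+/+ Hdac2 WT replicate 2 the number of members called was 3, and without HttQ111/+ Hdac2 WT replicate 7 it was 2. The shares of all genes called in these fits are not given here. Without surrogate variables all 10 were below 0, with a median of -0.43 and Junb at -0.63 (SE 0.25, adjusted p = 0.0598). In that fit 1 member was lower at an unadjusted p under 0.05, as were 17.6% of all genes. The exact permutation test gave p = 0.0176 for Junb and p = 0.0257 for Egr1. Fitted on the libraries of the 2 groups alone, 8 of the 10 were called lower, as were 17.7% of all genes. Within the V series all 10 were lower (5 and 5 libraries, median -1.08), and within the A series 8 of 10 were higher (3 and 2 libraries). In males all 10 were lower (8 and 5 libraries), and in females 9 of 10 were higher (3 and 3). The HttQ111/+ Hdac2 KO females held no V library, so sex and ID series are not separated in these values.

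**Figure D2:**
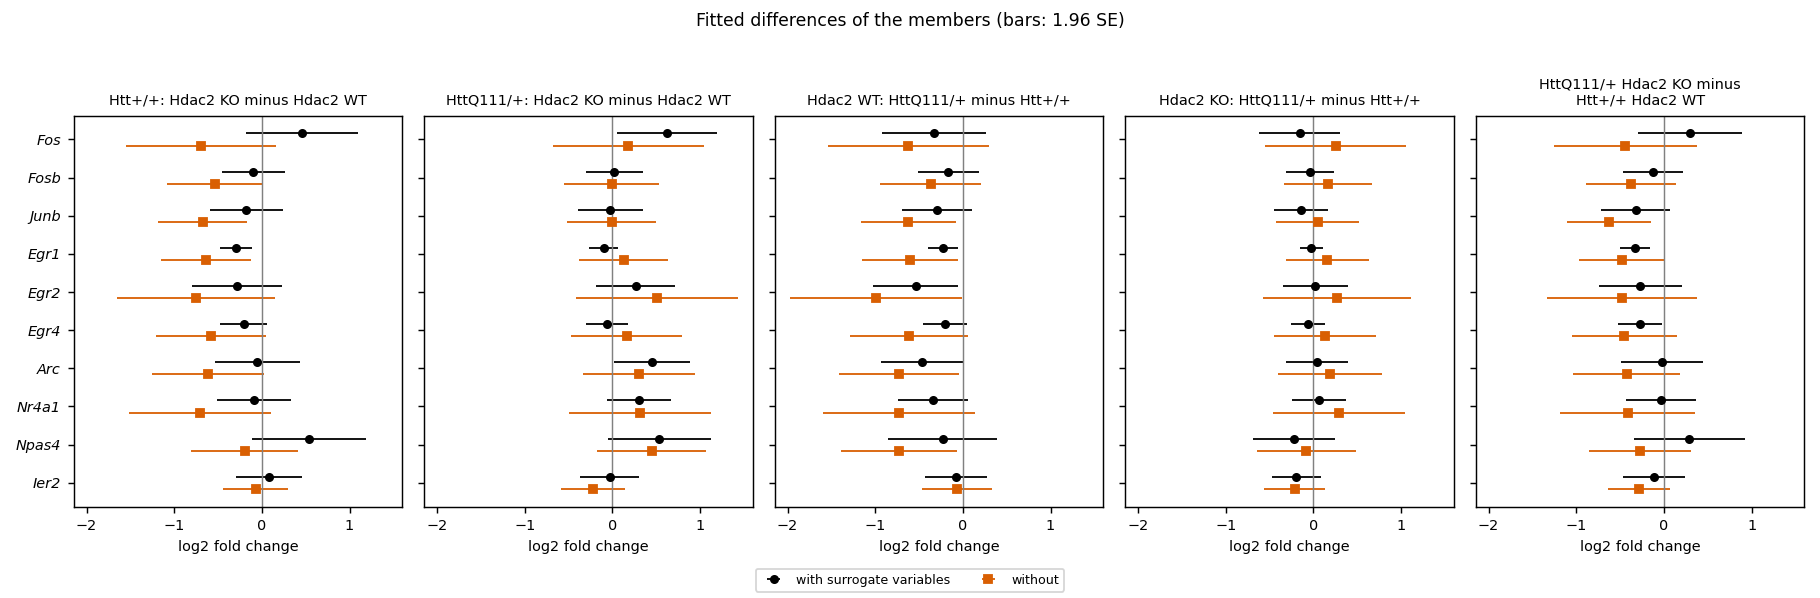
Log2 fold changes of the members in the 5 comparisons of 2 groups, with (black circles) and without (orange squares) surrogate variables. Bars span an approximate 95% interval taken from the SE alone, which is narrower than the F test implies. Without surrogate variables the error bars are wider and, in the 3 comparisons with Htt+/+ Hdac2 WT, all 10 points lie below 0; with them Fos lies at 0.46, -0.33 and 0.30 in those 3.

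The spread between mice of one genotype was larger for these genes than for nearly all others. The biological coefficient of variation, fitted without covariates beyond group, was 69.3% for Egr2, 65.4% for Fos, 61.1% for Nr4a1, 49.0% for Arc, 48.2% for Egr4, 47.1% for Npas4, 41.2% for Fosb, 39.3% for Egr1 and 39.1% for Junb, with a median of 10.0% over all genes. Those 9 lay at the 96.4th to 99.4th percentile of all genes tested, and Ier2 (25.6%) at the 87.1th. Among genes nearest in level, the 9 lay at the 99.3th to 99.9th percentile and Ier2 at the 81.9th.

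The same libraries were high or low for most members. In HttQ111/+ Hdac2 WT, replicates 2 and 5 were below the group median for all 10 members, and between them held 9 of the 10 lowest values. Fos was at 0.834 and 0.977 CPM, Egr1 at 175 and 146 CPM and Nr4a1 at 23.8 and 24.5 CPM in these 2 libraries. Replicates 1 and 7 of that group were above the median for all 10. In Htt+/+ Hdac2 KO, replicate 8 was above the median for all 10 and replicate 1 held the highest value of 6, with Nr4a1 at 312 CPM, while replicate 9 held the lowest value of 7. In HttQ111/+ Hdac2 KO, replicate 1 held the highest value of 9 members, and replicates 7 and 8 the lowest of 5 and 4. The Htt+/+ Hdac2 WT libraries differed less, and replicate 4 held 7 of the 10 highest values.

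**Figure D3:**
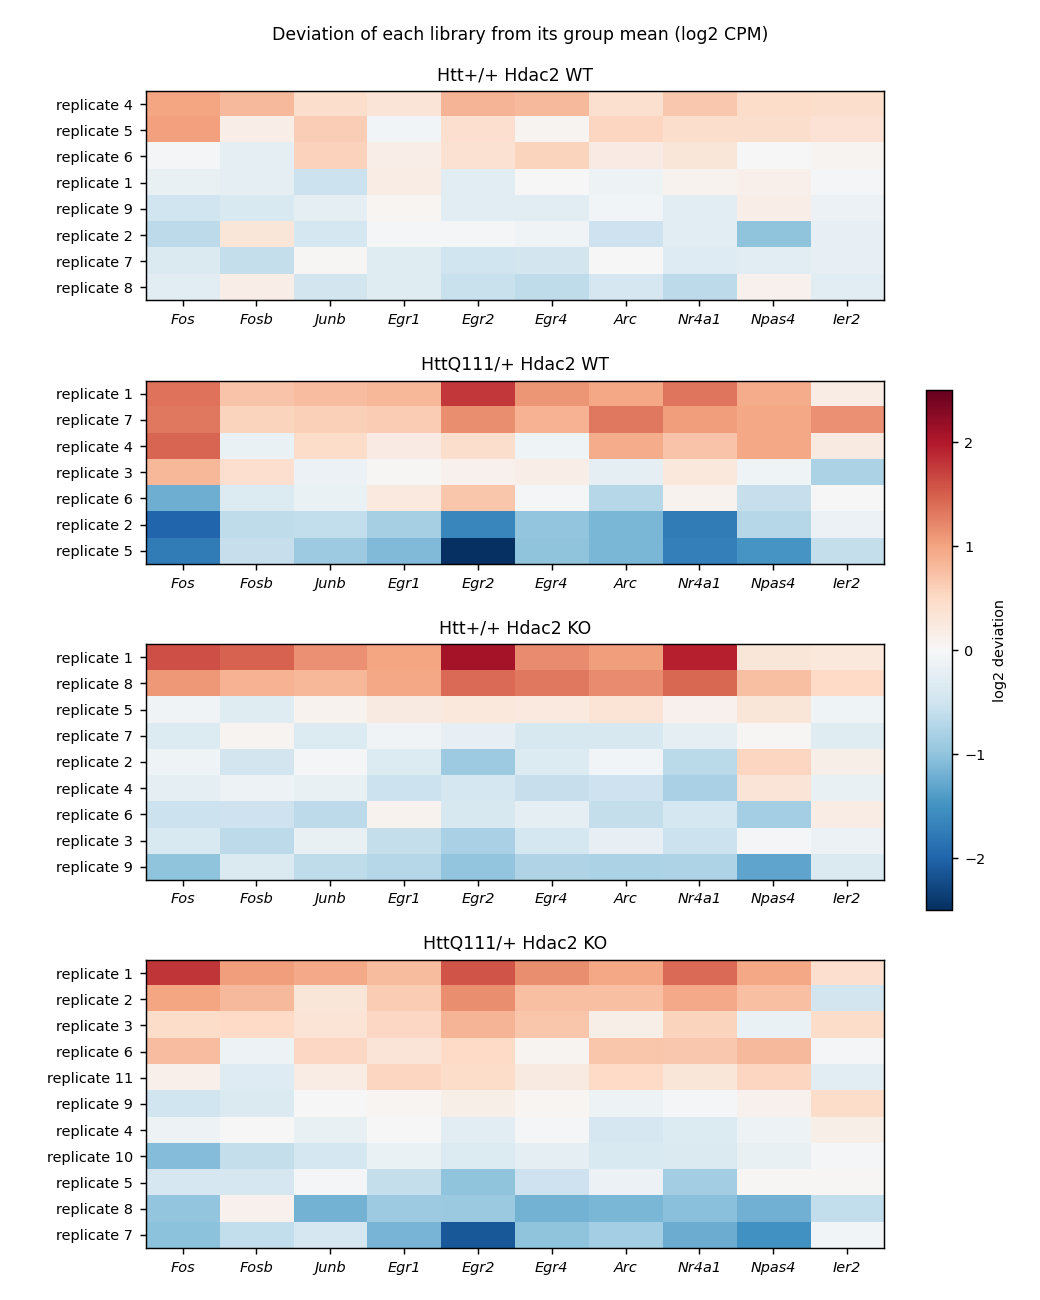
Log2 CPM of each member minus its group mean (colour, red above and blue below) in every library, with the libraries of each group ordered by their mean deviation. Most libraries keep 1 colour across the members, and replicates 2 and 5 of HttQ111/+ Hdac2 WT are blue throughout, and replicate 1 of HttQ111/+ Hdac2 KO is red throughout.

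Across the 35 libraries, deviations of log2 CPM from the group mean were correlated for each of the 45 pairs of members. Pearson's r was highest for Egr2 with Nr4a1 (r = 0.965, rho = 0.969) and for Egr1 with Egr2 (r = 0.955, rho = 0.955), each with the smallest p that 100000 permutations within groups can give (1e-05, adjusted over the 45 pairs 1.61e-05). It was lowest for Fosb with Ier2 (r = 0.348, permutation p = 0.0452, adjusted 0.0452; rho = 0.292, permutation p = 0.106, adjusted 0.106). The median over pairs was 0.79, and 0.775 without the 2 libraries farthest from the median of the first gene. Without Ier2 the 36 pairs ran from 0.486 to 0.965, and the pairs with Ier2 from 0.348 to 0.633. The weakest pair without Ier2 was Fosb with Npas4 (r = 0.486, rho = 0.534, adjusted p = 0.00604 by permutation). Egr2 with Nr4a1 stayed near this level within each ID series (r = 0.984 in A, 0.946 in V and 0.961 in Z). Other pairs did not, as within V Fosb with Junb had r = 0.222 (0.653 over all libraries) and Fosb with Arc r = 0.257 (0.644).

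The 8 other genes whose deviation was most like the members' mean, of 14773 ranked over the 35 libraries, were Dusp6 (r = 0.956), 1700016P03Rik (0.934), Fosl2 (0.906), Dusp1 (0.904), Slc25a25 (0.904), Midn (0.90), Dusp5 (0.898) and Per1 (0.898). Dusp1, Dusp5 and Dusp6 are dual-specificity phosphatases, Fosl2 is a further AP-1 subunit, Slc25a25 is a mitochondrial carrier and Per1 a clock gene. Fosl2 ranged from 7.99 to 150 CPM over the libraries. By list, the median r was 0.929 for the members themselves, which form the mean, 0.567 for 13 other rapid transcription factors, 0.681 for 23 other rapid response genes, 0.219 for 8 slower activity-regulated genes and 0.149 for 15 upstream regulators, against 0.0052 over all genes.

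The mouse ID opens with A, V or Z, and the labels do not say what the letter stands for. Among HttQ111/+ mice, every V library had a longer CAG repeat than every A or Z library. In these mice the V series and repeat length therefore cannot be told apart. The difference between these ID series, fitted with group and no surrogate variables, called 4 of the 10 members and 20.5% of all genes. Fosb (adjusted p = 0.0169), Egr1 (0.022), Egr2 (0.0282) and Egr4 (0.044) passed, and Nr4a1 (0.0635) and the other 5 did not. Egr2 had 3.26, 32.1 and 54.6 CPM (lowest, median and highest) in the 8 A libraries, 1.74, 12.2 and 49.4 CPM in the 16 V libraries and 6.50, 16.3 and 34.3 CPM in the 11 Z libraries. Its mean deviation from the group means was 0.69, -0.46 and 0.17 log2 units in A, V and Z. Egr1 had the same order (0.38, -0.30 and 0.17), with medians of 545, 331 and 361 CPM, whereas Fosb was high in A alone (0.50, -0.14 and -0.15). The series ranges overlapped, and 1 of the 2 HttQ111/+ Hdac2 WT libraries of the A series was among the lowest of all. ID series accounted for 27.6% of the variance within groups for Egr1, 25.3% for Fosb and 1.47% for Npas4, with a median of 12.9% over all genes.

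**Figure D4:**
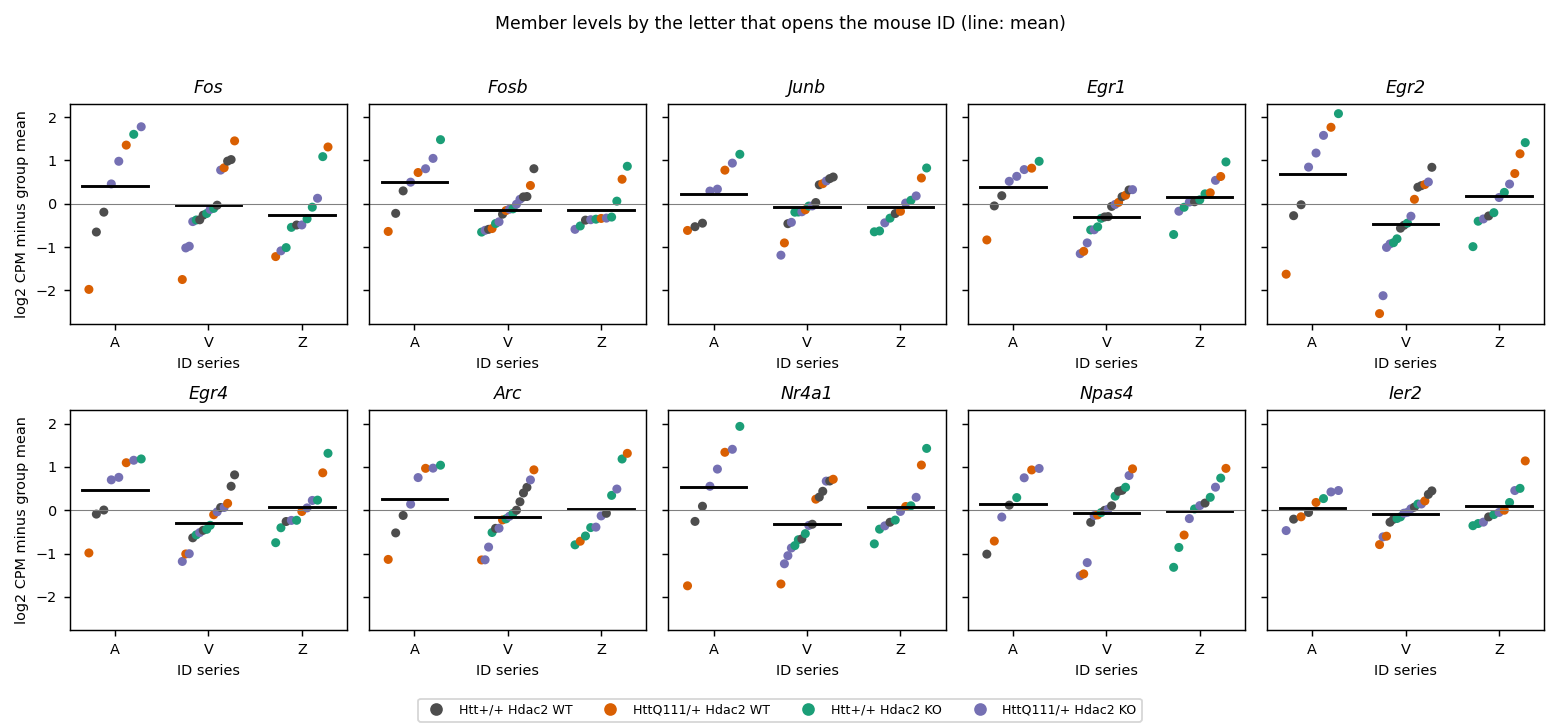
Log2 CPM of each member minus its group mean by ID series (A, V, Z), with 1 point per library coloured by genotype and a line at the mean. Egr2 has means of 0.69, -0.46 and 0.17 in A, V and Z, and points of each series overlap.

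Extraction dates, fitted in the same way, called 0 of the 10 members and 0.715% of all genes. Unadjusted p values under 0.05 were found for 4 members, Egr1 (p = 0.000547, adjusted 0.0641), Egr2, Egr4 and Nr4a1, and for 13.3% of all genes. Males minus females called 0 of the 10 and 0.0807% of all genes, with 0 members at an unadjusted p under 0.05. The difference was 0.30 (SE 0.34) for Egr2, 0.04 (SE 0.19) for Egr1 and -0.01 (SE 0.23) for Npas4. DESeq2 was not run for these last 2 comparisons.

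Other genes of the same response were counted by list, chosen with earlier results of these data known. Of 23 other rapid response genes, the average Hdac2 KO effect called 4 higher and 0 lower. Trib1, a pseudokinase (0.37, SE 0.089, adjusted p = 0.00247), Plk2, a kinase induced by activity (0.16, SE 0.043, adjusted p = 0.00678), and Apold1 (0.55, SE 0.17, adjusted p = 0.0157) had the lowest adjusted p values. Of 13 other rapid transcription factors tested it called Klf6 and Klf10 higher and 0 lower. These shares are below the 25.0% of all genes that it called. The median over the rapid response genes was 0.13 and over the members 0.01, against 0.00203 over all genes. Of 15 upstream regulators it called 0 higher and 5 lower, beside the same 25.0% of all genes in both directions, among them Crtc1, a CREB coactivator (-0.18, SE 0.024, adjusted p = 1.48e-06), and Mef2d, a transcription factor (-0.16, SE 0.036, adjusted p = 0.00107). Crtc1 was called lower in both Htt backgrounds. For the average HttQ111 effect, which called 1.27% of all genes, the called genes were Jun (-0.25, SE 0.063, adjusted p = 0.0372), Homer1, a synaptic scaffold (-0.28, SE 0.044, adjusted p = 0.000809), Rps6ka5 (-0.22, SE 0.048, adjusted p = 0.0152) and, higher, Pcsk1, a prohormone convertase (0.39, SE 0.072, adjusted p = 0.00403). Slower activity-regulated genes numbered 8, of which 1 rose and 1 fell in that comparison.

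Markers of other cells were set beside the members. MSN markers, 10 genes such as Ppp1r1b and Drd2, summed to 8038 to 9171 CPM in Htt+/+ Hdac2 WT and 5858 to 7915 CPM in HttQ111/+ Hdac2 WT libraries, with 7 of 10 called lower in the average HttQ111 effect. In Hdac2 KO striata the sums were 7550 to 8948 CPM with Htt+/+ and 6633 to 8285 CPM with HttQ111/+. The median r of these markers with the members' mean deviation was 0.0666, that of 9 cortical projection neuron entries 0.105 and that of 6 microglia markers -0.121. Cortical markers (8 genes, 2 entries for Cux2) summed to 45.6 to 102 CPM, 39.4 to 495 CPM, 46.9 to 220 CPM and 50.2 to 92.2 CPM in the 4 groups in the order given at the start. Slc17a7, which marks cortical and other glutamatergic neurons, exceeded 100 CPM in 3 libraries, HttQ111/+ Hdac2 WT replicate 7 (346 CPM) and Htt+/+ Hdac2 KO replicates 2 (106) and 6 (132). Without these 3 libraries Egr1 was again called in the same 3 comparisons, at -0.39, -0.36 and -0.26 (adjusted p = 0.025, 0.0158 and 0.0376) in the order Hdac2 KO in Htt+/+ mice, the comparison of both changes, and the average Hdac2 KO effect. Egr4 was then also called lower in the comparison of both changes (-0.41, adjusted p = 0.0315). This setting was chosen after seeing the data. Oligodendrocyte markers (5 of 5 measured) had a median r of 0.431 with the members' mean deviation and blood markers (5 entries tested) one of 0.369. Oligodendrocyte markers summed to 3990 to 5636, 4240 to 5845, 4586 to 7148 and 4020 to 5956 CPM in the 4 groups, and blood markers to 112 to 210, 105 to 211, 107 to 196 and 93.2 to 206 CPM. The part of these cells in the members' levels was not tested.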

How the data were processed

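RNA-seq libraries from 35 mouse striata were used, each mapped to its genotype group by its label. Per the labels and the study's methods, the authors used GSNAP for alignment (genome build GRCm38) and bedtools to count uniquely placed reads across each gene's full interval, introns included, so the deposited values are raw counts per gene. Use of strand is not given in the sources used here, and the authors left out 1 Htt+/+ Hdac2 WT library. Of 39109 entries, 92 ERCC controls, 6152 genes under 250 nt and 2 mitochondrial rRNAs were removed. A gene was tested where each library of a compared group had 6 counts or more, and log2 CPM used a prior count of 2. Counts were scaled by TMM and tested with edgeR 4.0.16 (quasi-likelihood F test) with surrogate variables from sva 3.50.0, in R 4.3.3. The fit was tested on simulated data for Hdac2 KO in Htt+/+ mice (17126 genes): 84% of genes changed by 0.5 on the log2 scale were called, and 99% of those changed by 1. Without surrogate variables the shares were 65% and 97%. The simulated fit had 2 surrogate variables and the reported one 9, and these shares are over all genes, not the more variable members. Its hidden factors were drawn independently of genotype, whereas most extraction days held a single Hdac2 genotype. The simulation therefore does not show how the fit behaves when a hidden factor follows genotype. DESeq2 1.42.0, other covariates, filters, scalings and sets of libraries were alternatives. Fits with 1 library left out kept genes that passed in any of the 4 groups, and estimated any surrogate variables anew. Totals were 50339179 to 76939791 counts, which limits precision least for the abundant members. Where labels do not say otherwise, p values without surrogate variables measure the spread between these mice. Those with surrogate variables measure the spread that these variables leave. The members, gene lists and tests were chosen with earlier results of these data known. All 10 members are named throughout, list genes by lowest adjusted p (at most 3 a comparison), and similar genes by the 8 highest correlations. The values of 1 gene of the upstream regulator list are not reported here.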

Additional observations from a re-analysis of the deposited data

Results flagged for a closer look

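In a group of 7 libraries, Ier2 in HttQ111/+ Hdac2 WT replicate 7 was at 3.41 CPM, and the next highest library had 1.80 CPM. The gap took 0.641 of the whole range of the group, above Dixon's critical value for 7 samples. This was the only such sample in the 30 combinations of member and group with 4 to 10 libraries, and chance alone marks about 1 in 20. The same library had the highest Slc17a7 level (346 CPM), and the part of that in the Ier2 value was not tested.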

How the results depend on the processing

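The number of members called was 1 as reported for Hdac2 KO in Htt+/+ mice. It was 0 without surrogate variables, with sex or extraction date in their place, in males only, with DESeq2 and with no filter, 2 with a replicate block (Fosb -0.68, Junb -0.73) and 6 with only the 2 groups. For HttQ111/+ Hdac2 KO against Htt+/+ Hdac2 WT it was 1 as reported, 0 without surrogate variables, with sex, extraction date or a replicate block, in males only and with no filter, 2 with ID series, 2 without the 3 libraries high in Slc17a7 (chosen after seeing the data) and 8 with only the 2 groups. For the average Hdac2 KO effect it was 1 as reported and 0 without surrogate variables, with sex, ID series, extraction date or a replicate block, in males only, with DESeq2 and with no filter. Extraction dates called 0, and 1 with no filter. With 1 library left out, a choice made after seeing the data, the ranges with surrogate variables were 0 to 1, 0 to 3 and 0 to 2 in these 3 comparisons, 0 to 1 for Hdac2 KO in HttQ111/+ mice and 0 in the others. Without them they were 0 to 5 for Hdac2 KO in Htt+/+ mice, 0 to 1 for both changes together and 0 in the others. The shares of all genes called with 1 library left out are not given here.

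The sign of single members' log2 fold changes turned against the reported fit under the settings that follow. For Hdac2 KO in Htt+/+ mice, without covariates Fos -0.69, Npas4 -0.19 and Ier2 -0.0714, with sex Fos -0.69, Npas4 -0.19 and Ier2 -0.0674, and with ID series Fos -0.62, Npas4 -0.19 and Ier2 -0.16 had the other sign. With a replicate block Fos -0.86, Npas4 -0.19 and Ier2 -0.0449, in the 2 groups alone Fos -0.72, Npas4 -0.20 and Ier2 -0.0823, and with no filter Fosb 0.0273 had the other sign. In males only Arc 0.20 and Nr4a1 0.0454, and with date Npas4 -0.27 and Ier2 -0.0401 had the other sign. For Hdac2 KO in HttQ111/+ mice, without covariates Fosb -0.00968, Egr1 0.13 and Egr4 0.16, with sex Fosb -0.00844, Egr1 0.13 and Egr4 0.17, and with ID series Fosb -0.0961, Egr1 0.10 and Egr4 0.11 had the other sign. In the 2 groups alone Fosb -0.0589, Junb 0.0157, Egr1 0.0400 and Egr4 0.0770, without the 3 libraries high in Slc17a7 Fosb -0.0281, and with a replicate block Junb 0.11, Egr1 0.14 and Egr4 0.25 had the other sign. With date Egr1 0.15 and Egr4 0.36, and in males only Egr4 0.0582 and Ier2 0.0911 had the other sign. For HttQ111 in Hdac2 KO mice, without covariates Fos 0.26, Fosb 0.16, Junb 0.0488, Egr1 0.16 and Egr4 0.13, with sex Fos 0.29, Fosb 0.17, Junb 0.0593, Egr1 0.16 and Egr4 0.15, and with ID series Fos 0.0380, Fosb 0.0341, Egr1 0.18 and Egr4 0.0807 had the other sign. With a replicate block Fos 0.41, Fosb 0.32, Junb 0.10, Egr1 0.14 and Egr4 0.19, with no filter Egr1 0.0230, and without the 3 libraries high in Slc17a7 Egr1 0.0199, Egr2 -0.00414, Arc -0.0875 and Nr4a1 -0.0318 had the other sign. With date Egr2 -0.12, Arc -0.0343 and Nr4a1 -0.0284, in males only Egr2 -0.22, Arc -0.35 and Nr4a1 -0.16, and in the 2 groups alone Egr2 -0.0543 and Arc -0.0351 had the other sign. For both changes together, without covariates Fos -0.44 and Npas4 -0.28, with sex Fos -0.40 and Npas4 -0.28, and with ID series Fos -0.58 and Npas4 -0.31 had the other sign. With date Fos -0.15 and Npas4 -0.59, with a replicate block Fos -0.45 and Npas4 -0.28, and in males only Fos -0.0879 had the other sign. In the 2 groups alone Fos -0.62 and Npas4 -0.38, and with no filter Nr4a1 0.0730 had the other sign. For the interaction, in males only Fos -0.22, Junb -0.0361 and Npas4 -0.50 had the other sign. For the average Hdac2 KO effect, without covariates Fos -0.25, Arc -0.15, Nr4a1 -0.19 and Ier2 -0.14, with sex Fos -0.24, Arc -0.15, Nr4a1 -0.19 and Ier2 -0.15, and with ID series Fos -0.29, Arc -0.22, Nr4a1 -0.37 and Ier2 -0.17 had the other sign. With a replicate block Fos -0.19, Arc -0.11, Nr4a1 -0.25 and Ier2 -0.0859, with date Fosb 0.12, Egr2 0.36, Egr4 0.0883, Arc -0.19, Npas4 -0.0330 and Ier2 -0.16, and in males only Fosb 0.00148, Egr2 0.0676 and Egr4 0.0219 had the other sign. With no filter Fosb 0.0341, Egr2 0.0800 and Ier2 -0.0226, with DESeq2 Egr2 0.0488, and without the 3 libraries high in Slc17a7 Ier2 -0.0206 had the other sign. For males minus females, with ID series added Npas4 0.0405 had the other sign. The cause was not tested.

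With 1 library left out, the sign turned in at least 1 fit for the members that follow, given with their lowest and highest values. Hdac2 KO in Htt+/+ mice ran from -0.42 to 0.18 for Arc, -0.0577 to 0.62 for Fos, -0.19 to 0.28 for Ier2, -0.61 to 0.0633 for Junb and -0.40 to 0.0796 for Nr4a1. Hdac2 KO in HttQ111/+ mice ran from -0.25 to 0.0669 for Egr1, -0.0274 to 0.56 for Egr2, -0.15 to 0.0566 for Egr4, -0.0588 to 0.13 for Fosb, -0.20 to 0.0918 for Ier2 and -0.19 to 0.13 for Junb. HttQ111 in Hdac2 WT mice ran from -0.31 to 0.0930 for Ier2. HttQ111 in Hdac2 KO mice ran from -0.0436 to 0.26 for Arc, -0.0510 to 0.13 for Egr1, -0.0836 to 0.41 for Egr2, -0.12 to 0.0865 for Egr4, -0.23 to 0.20 for Fos, -0.11 to 0.27 for Fosb and -0.21 to 0.12 for Junb. Both changes together ran from -0.39 to 0.19 for Arc, -0.23 to 0.47 for Fos, -0.41 to 0.0645 for Ier2, -0.11 to 0.54 for Npas4 and -0.35 to 0.15 for Nr4a1. The interaction ran from -0.0951 to 0.59 for Fos, -0.32 to 0.0892 for Ier2, -0.0553 to 0.53 for Junb and -0.22 to 0.43 for Npas4. The average HttQ111 effect ran from -0.47 to 0.00152 for Fos, -0.21 to 0.0967 for Fosb and -0.31 to 0.0801 for Nr4a1. The average Hdac2 KO effect ran from -0.22 to 0.20 for Egr2, -0.20 to 0.0222 for Fosb, -0.14 to 0.18 for Ier2, -0.35 to 0.0555 for Junb and -0.0604 to 0.24 for Nr4a1.

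Over all genes, calls ranged from 822 to 5094 (3056 as reported) for Hdac2 KO in Htt+/+ mice, 331 to 3205 (2841) in HttQ111/+ mice, 0 to 837 (69) for HttQ111 in Hdac2 WT, 0 to 42 (1) in Hdac2 KO, 798 to 5619 (3627) for both changes, 0 to 7 (1) for the interaction, 91 to 629 (220) and 802 to 5568 (4341) for the average HttQ111 and Hdac2 effects, and 70 to 288 (124) for extraction dates. Replicate numbers did not pair the samples: deviations of same-numbered libraries correlated at -0.206 to 0.289 (median 0.0432, 45 pairs).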

Other observations

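Whether the genotype differences themselves differed between males and females was tested after the values within each sex had been seen, in a fit without surrogate variables over 17346 genes. At an unadjusted p under 0.05, 9 of the 10 members differed for HttQ111/+ against Htt+/+ in Hdac2 KO mice and 8 for Hdac2 KO against Hdac2 WT in HttQ111/+ mice, and 6.92% and 10.1% of all genes did so. For both changes together it was 5 members and 4.89% of all genes. The members moved together between libraries (median r 0.79), so these counts are not of separate results. Females numbered 3 in HttQ111/+ Hdac2 KO, 4 in Htt+/+ Hdac2 KO and 3 in each Hdac2 WT group. The HttQ111/+ Hdac2 KO females were all of the A or Z series, and all 5 V libraries of that group were males with longer CAG repeats. The fit had no term for ID series, so it does not separate sex from series or repeat length. After edgeR's adjustment over all genes, 0 members and 0 genes were called. For Egr2 in Hdac2 KO mice, the HttQ111 difference was 2.09 in females and -0.70 in males, and male minus female was -2.80 (SE 0.782, p = 0.00113, adjusted p = 0.692). Nr4a1 had 1.90 in females and -0.57 in males (adjusted p = 0.692). For Hdac2 KO in Htt+/+ mice and for HttQ111 in Hdac2 WT mice, 0 members had an unadjusted p under 0.05 for such a difference.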
